A study of Mus musculus with 14 samples.

Results

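The adult globin genes Hbb-bs, Hbb-bt, Hba-a1 and Hba-a2, together with Alas2, were followed across 14 RNA-seq libraries of microglia sorted from the dorsal horn (DH) of the lumbar spinal cord. The genes were taken by symbol, and all 5 of the 5 sought were among the 14329 genes of the deposited values. All 5 also passed the filter of at least 10 reads in at least 7 libraries, which left 12645 genes for testing. They were selected on their levels in these same libraries, so their levels and group differences are given below as a description, without p-values. The libraries came from WT mice and from TASTPM mice, a model of Alzheimer's disease that carries mutant human APP (TAS10) and mutant human presenilin-1 (TPM) transgenes, both heterozygous and both driven by the mouse Thy-1 promoter, which is active in neurons. All mice were 6 months old, of both sexes and of C57BL/6 background, and WT animals carried neither transgene. Mice were given 100 µl of serum intraperitoneally on days 0 and 2, either arthritogenic K/BxN serum (K/BxN ST) or control serum from KRN/C57 mice (Control ST), and cells were collected on day 5. There were 3 WT Control ST, 4 WT K/BxN ST, 3 TASTPM Control ST and 4 TASTPM K/BxN ST libraries, each of 2000 CD45low CD11b+ CX3CR1+ cells from 1 mouse, and the study's gate also required that cells lack Ly6C and CCR2, surface proteins of classical monocytes. Mice had been perfused with ice-cold saline before dissection, and no red cell lysis step is described in the study's methods. TASTPM K/BxN ST libraries are numbered as in the sample labels, and those of the other groups in the order of the deposited values.

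Haemoglobin of adult mice is built of alpha chains, encoded by Hba-a1 and Hba-a2, and beta chains, encoded by Hbb-bs and Hbb-bt, each chain holding a heme group that binds oxygen. Alas2 encodes the erythroid form of 5-aminolevulinate synthase, the enzyme of the first step of heme synthesis in red cell precursors, whereas Alas1 encodes the form used by other cells. Mature red cells of mammals have no nucleus, and young ones, the reticulocytes, still carry globin messenger RNA. Ly6c2, a surface protein gene of classical monocytes, and S100a8, a calcium-binding protein gene of neutrophils and monocytes, served as the leukocyte genes for comparison.

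The paralogs of each globin pair are near copies, and this limits how far their levels can be told apart. In GRCm39 Hbb-bs (ENSMUSG00000052305) lies on the minus strand at chr7:103475730-103482989 and Hbb-bt (ENSMUSG00000073940) on the minus strand at chr7:103461727-103465047. Hba-a1 (ENSMUSG00000069919) lies on the plus strand at chr11:32233186-32234504 and Hba-a2 (ENSMUSG00000069917) at chr11:32246168-32247320, also on the plus strand. Each globin gene has 3 exons in its main transcript. Alas2 (ENSMUSG00000025270) has 11 exons and lies on the plus strand at chrX:149330371-149353634. The coding sequences of Hbb-bs and Hbb-bt are 441 bases long and differ at 1 base, and those of Hba-a1 and Hba-a2 are 426 bases long and also differ at 1 base, an identity of 99.77% in both pairs. The 60 coding bases around each difference are shown because they are the only coding stretch that separates the paralogs, with the differing base in capitals. Counted from the first coding base, the difference is C417T from Hbb-bs to Hbb-bt and C381T from Hba-a1 to Hba-a2.
Hbb-bs: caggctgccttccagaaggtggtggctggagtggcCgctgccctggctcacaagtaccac
Hbb-bt: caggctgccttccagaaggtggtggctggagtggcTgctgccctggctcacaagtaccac
Hba-a1: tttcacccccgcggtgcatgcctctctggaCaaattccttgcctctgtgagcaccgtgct
Hba-a2: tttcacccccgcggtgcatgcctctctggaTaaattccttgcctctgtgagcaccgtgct

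Over whole transcripts, 55.0% of the 150-base windows of Hbb-bs, the read length of the libraries, were also present in Hbb-bt. The share was 50.6% for Hbb-bt, 62.8% for Hba-a1 and 72.1% for Hba-a2. How the authors treated reads that fit both copies is not given in the sources used here, so the split within a pair is uncertain, and sums over the pairs are used where possible. Hbb-bs also overlaps Hbb-bh3 on its own strand, Hbb-bs, Hbb-bt and Alas2 each overlap genes on the opposite strand, and the amplification kit does not keep strand.

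The 120 bases before the transcription start are shown for 4 of the 5 genes because the globin genes varied together, and that of Hba-a2 is left out as a near copy of that of Hba-a1. They come from RefSeq, in which all 5 genes had an entry, with GRCm38.p6 coordinates. Capitals mark 4 motifs on either strand, with no overlaps between them. These were TATAA, the core of the TATA box that positions the start of transcription, then CCAAT, the box bound by NF-Y, then CACCC, the box bound by Krüppel-like factors such as erythroid Klf1, and lastly AGATAA, a motif bound by GATA factors such as erythroid Gata1.
Hbb-bs, chr7:103827929-103828048, minus strand: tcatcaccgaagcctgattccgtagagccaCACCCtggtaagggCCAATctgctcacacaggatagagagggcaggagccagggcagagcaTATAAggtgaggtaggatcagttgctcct
Hbb-bt, chr7:103813924-103814043, minus strand: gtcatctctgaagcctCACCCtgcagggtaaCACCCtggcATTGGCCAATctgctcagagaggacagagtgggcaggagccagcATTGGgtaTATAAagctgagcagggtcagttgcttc
Hba-a1, chr11:32283552-32283671, plus strand: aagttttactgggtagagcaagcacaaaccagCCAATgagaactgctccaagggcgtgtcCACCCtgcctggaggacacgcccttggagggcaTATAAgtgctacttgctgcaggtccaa
Alas2, chrX:150547297-150547416, plus strand: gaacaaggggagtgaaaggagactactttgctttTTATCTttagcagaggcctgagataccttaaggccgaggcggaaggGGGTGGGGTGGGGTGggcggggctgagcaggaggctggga

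The TATA, CCAAT and CACCC boxes were each found in the windows of all 4 globin genes. The Alas2 window held the GATA motif and 3 copies of the CACCC box, all on the reverse strand, and neither of the other boxes. Of 32851 RefSeq promoter windows of this length, 11.8% held the TATA box, 21.3% the CCAAT box, 31.7% the CACCC box and 4.4% the GATA motif. The windows of Hba-a1 and Hba-a2 shared an unbroken run of 117 bases, those of Hbb-bs and Hbb-bt one of 14 bases, and those of Hbb-bs and Hba-a1 one of 9 bases.

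Libraries held 14223015 to 20239175 reads on genes, and the 10 microglia marker genes summed to 332236 to 1279770 normalized counts. A normalized count is the number of reads on a gene divided by 1 scaling factor for the library, and 3 reads, taken as the smallest detectable number, corresponded to 2.51 to 3.58 normalized counts. In bulk RNA, fewer cells of a type and less RNA per cell cannot be told apart. WT Control ST library 3 stood apart from the other 13 in all 5 genes, so the differences and calls that rest on WT Control ST are given with and without it.

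**Figure D1:**
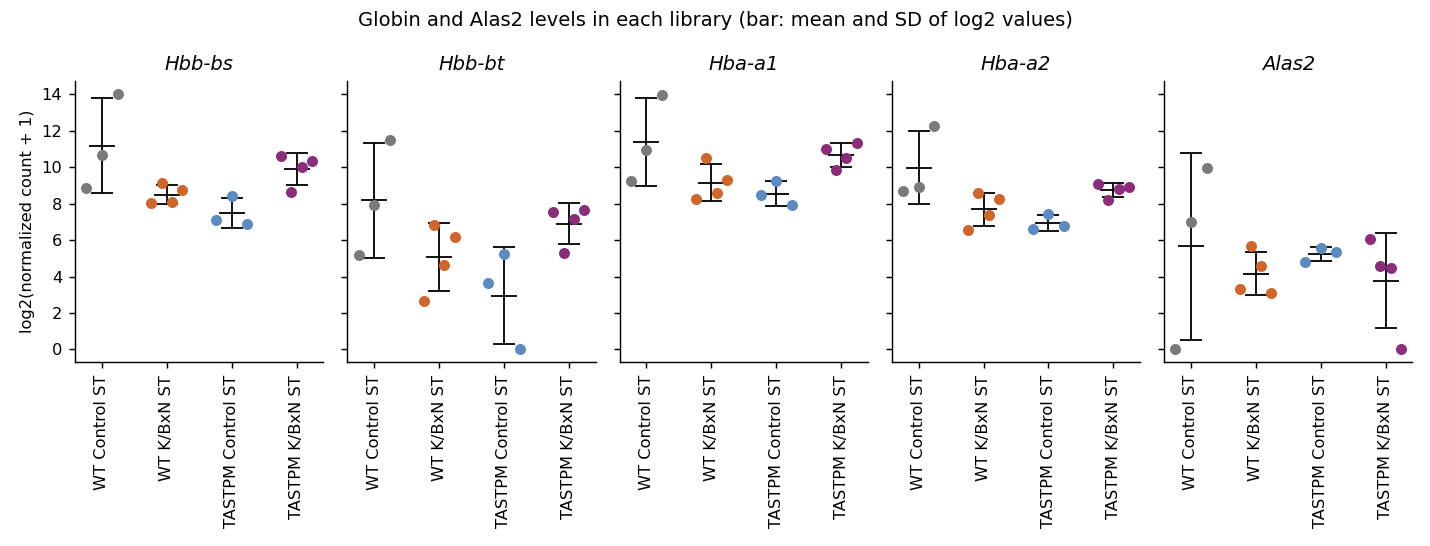
Levels of the 4 globin genes and Alas2 in every library, as log2(normalized count + 1) on the vertical axis, with 1 point per library and black bars for the group mean and SD of the log2 values. WT Control ST holds the highest point of every panel, and the TASTPM K/BxN ST points lie above all TASTPM Control ST points for the 4 globin genes but not for Alas2.

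Hbb-bs, the more abundant beta chain transcript, had 459, 1662 and 16768 normalized counts in WT Control ST libraries 1 to 3, and 258, 557, 270 and 436 in WT K/BxN ST libraries 1 to 4. In TASTPM it had 137, 340 and 119 in Control ST and 1557, 405, 1020 and 1318 in K/BxN ST. Library 3 of WT Control ST lay far above all others, the WT groups overlapped, and the TASTPM groups did not. The mean was 6297 ± 9089 (SD, n = 3) in WT Control ST and 380 ± 143 (SD, n = 4) in WT K/BxN ST. It was 199 ± 123 (SD, n = 3) in TASTPM Control ST and 1075 ± 498 (SD, n = 4) in TASTPM K/BxN ST. Hbb-bs was thus 0.0604 times as high in K/BxN ST as in Control ST in WT, or 0.359 times without library 3, and 5.41 times as high in TASTPM.

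Hbb-bt, the less abundant beta chain transcript, had 35.6, 241 and 2871 normalized counts in WT Control ST, while WT K/BxN ST libraries had 5.42, 114, 23.9 and 72.0. Its TASTPM values were 11.5, 36.6 and 0 in Control ST and 184, 38.0, 142 and 203 in K/BxN ST. The 0 in TASTPM Control ST library 3 means fewer than the 2.73 normalized counts that 3 reads would give. Its order of libraries was close to that of Hbb-bs, with TASTPM K/BxN ST library 2, at 38.0, only just above TASTPM Control ST library 2, at 36.6. Group means were 1049 ± 1581 (SD, n = 3) in WT Control ST and 53.9 ± 49.1 (SD, n = 4) in WT K/BxN ST. They were 16.04 ± 18.7 (SD, n = 3) in TASTPM Control ST and 142 ± 73.7 (SD, n = 4) in TASTPM K/BxN ST, which were 8.84 times apart.

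Hba-a1, 1 of the 2 alpha chain genes, had 598, 1999 and 16245 normalized counts in WT Control ST, against 310, 1468, 377 and 626 in WT K/BxN ST. In TASTPM the counts were 357, 610 and 240 in Control ST and 2083, 911, 1465 and 2576 in K/BxN ST. WT K/BxN ST libraries 2 and 4 exceeded WT Control ST library 1, so the WT groups overlapped, whereas every TASTPM K/BxN ST library exceeded every TASTPM Control ST library. Means were 6281 ± 8658 (SD, n = 3) in WT Control ST and 695 ± 533 (SD, n = 4) in WT K/BxN ST. In TASTPM they were 402 ± 189 (SD, n = 3) in Control ST and 1759 ± 725 (SD, n = 4) in K/BxN ST, a ratio of 4.37.

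Hba-a2, the second alpha chain gene, had 420, 492 and 4956 normalized counts in WT Control ST, against 93.0, 381, 164 and 306 in WT K/BxN ST. Values in TASTPM were 97.1, 172 and 109 in Control ST and 546, 300, 449 and 475 in K/BxN ST. It was the only globin gene whose WT groups did not overlap, all 4 WT K/BxN ST libraries lying below all 3 WT Control ST libraries. The WT means were 1956 ± 2598 (SD, n = 3) in Control ST and 236 ± 131 (SD, n = 4) in K/BxN ST. The TASTPM means were 126 ± 40.3 (SD, n = 3) and 442 ± 103.6 (SD, n = 4), a ratio of 3.51, the smallest of the 4 globin genes.

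Alas2 had 0, 129 and 979 normalized counts in WT Control ST, while WT K/BxN ST libraries had 9.03, 49.6, 22.7 and 7.63. In TASTPM it had 27.2, 46.6 and 40.0 in Control ST and 66.6, 22.8, 21.1 and 0 in K/BxN ST. Both pairs of groups overlapped, and the library with 0 counts in TASTPM K/BxN ST, library 4, held the second highest summed globin level of all 14. The mean was 369 ± 532 (SD, n = 3) in WT Control ST, 22.2 ± 19.5 (SD, n = 4) in WT K/BxN ST, 37.9 ± 9.90 (SD, n = 3) in TASTPM Control ST and 27.6 ± 27.9 (SD, n = 4) in TASTPM K/BxN ST. Relative to 1000 globin counts, Alas2 was at 0, 29.4 and 24.0 in WT Control ST libraries 1 to 3. In WT K/BxN ST libraries it was at 13.6, 19.7, 27.2 and 5.30. The TASTPM Control ST libraries, with the least globin on average, held 45.1, 40.3 and 85.4. TASTPM K/BxN ST libraries held 15.2, 13.8, 6.88 and 0.

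Summed over the 4 globin genes, WT Control ST libraries held 1513, 4394 and 40840 normalized counts and WT K/BxN ST libraries 667, 2520, 835 and 1440. TASTPM Control ST libraries held 603, 1158 and 468 and TASTPM K/BxN ST libraries 4370, 1654, 3076 and 4571. By median the groups ran from TASTPM Control ST at 603 through WT K/BxN ST at 1138 and TASTPM K/BxN ST at 3723 to WT Control ST at 4394. Without WT Control ST library 3 the median of that group was 2953, below that of TASTPM K/BxN ST, so the upper end of the order rests on that library. Of neighbours in this order, TASTPM Control ST overlapped WT K/BxN ST, WT K/BxN ST overlapped TASTPM K/BxN ST, and TASTPM K/BxN ST overlapped WT Control ST. Globin reads were 0.236% of the reads on genes in WT Control ST library 3 (95% Wilson interval 0.234 to 0.239%), or 42761 reads. In the other libraries the share ran from 0.00285% (0.00261 to 0.00310%) in TASTPM Control ST library 3 to 0.0276% (0.0267 to 0.0284%) in TASTPM K/BxN ST library 4. These intervals cover counting error alone, since amplified reads are not separate molecules, and they are far narrower than the spread between libraries of a group.

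Library 3 of WT Control ST exceeded the highest of the other 13 libraries 10.1 times for Hbb-bs, 11.9 times for Hbb-bt, 6.31 times for Hba-a1, 9.08 times for Hba-a2 and 7.58 times for Alas2. For the summed globin level it was 8.93 times the next library and 27.0 times the median of the other 13. Hbb-bs ranked 112 and Hba-a1 ranked 118 among all genes of that library. The 5 genes were the only 5 of the 12645 tested whose count there was more than 5 times the next highest library's count plus 1, a threshold set after the values were seen. In each of the other 13 libraries 0 to 2 genes met that threshold.

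The serum comparisons ask whether K/BxN serum changed the transcripts of sorted DH microglia in each genotype. For the globin genes the 2 genotypes differed in direction. In WT the log2 fold change of K/BxN ST against Control ST was -2.69 ± 0.87 (SE) for Hbb-bs, -3.11 ± 1.48 for Hbb-bt, -2.23 ± 0.83 for Hba-a1, -2.29 ± 0.71 for Hba-a2 and -1.49 ± 1.87 for Alas2, on the log2(normalized count + 1) scale. In TASTPM it was 2.43 ± 0.87 (SE) for Hbb-bs, 3.95 ± 1.48 for Hbb-bt, 2.13 ± 0.83 for Hba-a1, 1.81 ± 0.71 for Hba-a2 and -1.47 ± 1.87 for Alas2. The added 1 matters most at low levels, and adding 0.5 instead gave -1.20 in WT and -1.72 in TASTPM for Alas2.

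WT Control ST library 3 carried much of the WT difference. Without it the WT log2 fold change was -1.27 ± 0.63 (SE) for Hbb-bs, -1.47 ± 1.48 for Hbb-bt, -0.93 ± 0.64 for Hba-a1 and -1.14 ± 0.53 for Hba-a2, and that of Alas2 turned to 0.65 ± 1.84. Alas2 also moved with the libraries in which it had no reads, to -4.31 in WT without Control ST library 1 and to -0.21 in TASTPM without K/BxN ST library 4. It was -0.80 in WT without Control ST library 2 and -2.23 in TASTPM without K/BxN ST library 1. Without WT Control ST library 1 the WT values were -3.87 for Hbb-bs, -4.61 for Hbb-bt, -3.31 for Hba-a1 and -2.92 for Hba-a2. Hbb-bt, with its low counts, was also at -2.31 in WT without K/BxN ST library 1 and at -3.70 without K/BxN ST library 2. In TASTPM it was at 2.47 without Control ST library 3, in which it had no reads, and at 5.09 without Control ST library 2. On the recovered reads, edgeR and DESeq2 gave larger WT differences for all 5 genes, from -4.28 to -3.04, and gave 3.15 for Hbb-bt and -0.45 for Alas2 in TASTPM. For the summed globin level the WT difference of mean log2 values was -2.44 with all libraries, -1.11 without Control ST library 3 and -3.49 without Control ST library 1. The TASTPM difference was 2.20 and stayed between 1.92 and 2.58 when any 1 of its 7 libraries was left out.

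**Figure D2:**
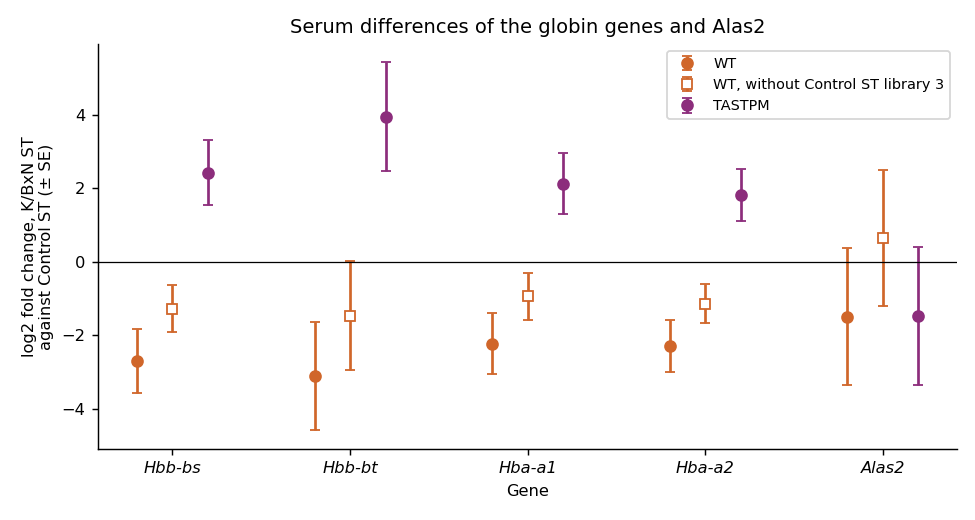
Log2 fold change of K/BxN ST against Control ST (vertical axis, bars show the SE of the fit) for each gene, in WT with all libraries, in WT without Control ST library 3, and in TASTPM. The 4 globin genes lie below 0 in WT and above 0 in TASTPM, whereas Alas2 changes sign in WT when library 3 is left out and lies at -1.47 in TASTPM.

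None of the 5 genes was called in WT by limma, for which a call needed an adjusted p under 0.05 and a log2 fold change of more than 1 either way. There 0.00791% of the genes tested were called, namely the retinoic acid receptor gene Rarg (log2 fold change 6.60 ± 0.89, limma adjusted p = 0.0321). None was called in TASTPM, between genotypes or in the interaction of genotype and serum, where limma called 0.00% of genes in each comparison. edgeR called 0 genes in all of these, while genes with an unadjusted limma p below 0.05 numbered 902 in WT and 533 in TASTPM. DESeq2 on the recovered reads called Hbb-bs and Hba-a1 in WT, beside 1.00% of all genes, and none of the 5 in TASTPM, beside 0.127%. It also called Hbb-bs and Hba-a1 in the interaction, beside 0.0949% of all genes. Without WT Control ST library 3, an alternative chosen after the values were seen, DESeq2 called none of the 5 in WT, beside 2.29% of all genes, and Hbb-bs in TASTPM, beside 0.150%. In the interaction it then called Hbb-bs and Hba-a2, beside 0.467%, while limma without that library called none of the 5 in any comparison. Every K/BxN ST library lay below every Control ST library for 1 of the 5 genes in WT (Hba-a2), against 3.71% of all genes tested. In TASTPM every K/BxN ST library lay above every Control ST library for 4 of the 5, against 2.67%. Nothing is read from these counts, because the genes were chosen on these values and the globin genes varied together.

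Between genotypes, the globin genes were lower in TASTPM than in WT under Control ST and higher under K/BxN ST. Under Control ST the log2 fold change of TASTPM against WT was -3.72 ± 0.93 (SE) for Hbb-bs, -5.24 ± 1.58 for Hbb-bt, -2.84 ± 0.89 for Hba-a1, -3.03 ± 0.76 for Hba-a2 and -0.40 ± 2.0 for Alas2. All 3 TASTPM Control ST libraries lay below all 3 WT Control ST libraries for 2 of the 5 genes, Hbb-bs and Hba-a2, against 4.71% of the genes tested. DESeq2 called Hbb-bs, Hbb-bt and Hba-a1 there, beside 0.324% of all genes. WT Control ST library 3 moved these values as well. Without it the log2 fold change was -2.30 ± 0.67 (SE) for Hbb-bs, -3.60 ± 1.56 for Hbb-bt, -1.55 ± 0.68 for Hba-a1 and -1.89 ± 0.56 for Hba-a2, and that of Alas2 changed sign to 1.74 ± 1.94. The summed globin difference went from -3.23 to -1.90, or to -4.28 without WT Control ST library 1. DESeq2 without library 3 called Hbb-bs, beside 1.27% of all genes, and Hbb-bs and Hba-a2 still did not overlap. Under K/BxN ST the log2 fold change was 1.41 ± 0.81 (SE) for Hbb-bs, 1.82 ± 1.37 for Hbb-bt, 1.51 ± 0.77 for Hba-a1, 1.07 ± 0.66 for Hba-a2 and -0.39 ± 1.73 for Alas2. TASTPM and WT K/BxN ST libraries overlapped for all 5 genes, and 1.16% of the genes tested lay higher in every TASTPM library. The Control ST libraries are shared between the serum and genotype comparisons, so these differences are not independent of each other.

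The 4 globin genes varied together. Over the 14 libraries Pearson's r between the log2 levels of any 2 of them ran from 0.90 (Hbb-bt and Hba-a2) to 0.97 (Hbb-bs and Hba-a1), and over the 13 libraries other than WT Control ST library 3 from 0.87 to 0.94. Alas2 did not follow them there. Its r with Hbb-bs was 0.44 over 14 libraries and -0.02 over 13. The points share library scaling, and reads can be exchanged between the copies of a pair, so these coefficients are a description.

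The makeup of the globin reads differed between libraries. Per kilobase of transcript, the level of alpha over beta globin was 1.01 in WT Control ST library 3, 1.22 in WT Control ST library 2 and 1.97 in WT Control ST library 1. It was 1.42, 2.57, 1.74 and 1.74 in WT K/BxN ST. In TASTPM it was 2.85, 1.94 and 2.75 in Control ST and 1.41, 2.56, 1.54 and 1.86 in K/BxN ST. The library with the most globin thus had near equal levels of the chains, and the 2 libraries with the least had the largest and second largest excess of alpha over beta. The libraries between did not keep this order. WT K/BxN ST library 1, with 667 globin counts, had a ratio of 1.42, and library 2, with 2520, had 2.57. Hbb-bt made up 14.6% of beta globin reads in WT Control ST library 3 (95% Wilson interval 14.1 to 15.1%, 20563 reads), 12.6% (11.3 to 14.1%) in WT Control ST library 2 and 7.20% (5.29 to 9.72%) in WT Control ST library 1. The highest share was 17.0% (14.5 to 19.9%) in WT K/BxN ST library 2. In WT K/BxN ST library 1 the share was 2.05% (0.945 to 4.41%), and TASTPM Control ST library 3 had 0 of 131 beta globin reads (0 to 2.85%), where the floor of 3 reads would be a share of 2.29%. The share of Hba-a2 among alpha globin reads ran from 15.6% (14.3 to 17.0%) in TASTPM K/BxN ST library 4 to 41.3% (38.4 to 44.2%) in WT Control ST library 1, and was 23.4% (22.8 to 23.9%) in WT Control ST library 3. Several of these intervals do not overlap, but they cover counting error alone and not the spread between mice, and no difference in makeup between groups was tested. The part of reads common to both copies was not tested either.

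**Figure D3:**
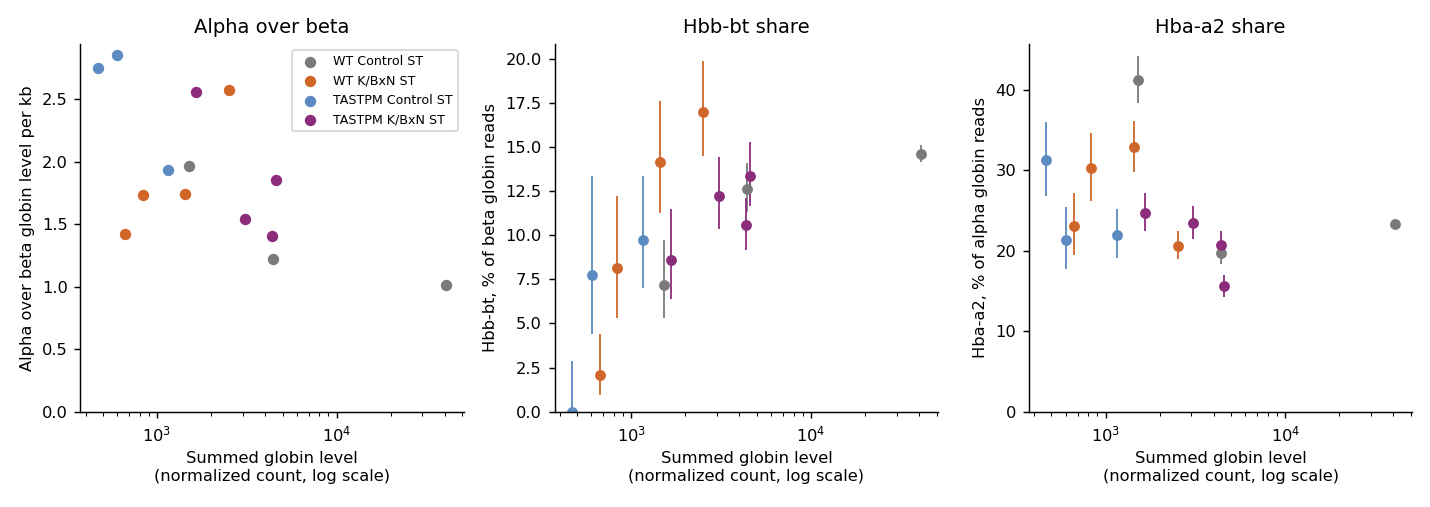
Alpha over beta globin level per kilobase (left), the share of Hbb-bt in beta globin reads (middle) and the share of Hba-a2 in alpha globin reads (right) against the summed globin level of each library on a log axis, with 95% Wilson intervals for the shares. WT Control ST library 3, at the far right of each panel, has a ratio of 1.01, and the 2 libraries at the far left have ratios of 2.75 and 2.85. WT K/BxN ST library 1, the next to the right of these at 667 globin counts, has a ratio of 1.42.

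Globin levels did not follow Ly6c2. TASTPM K/BxN ST libraries 1 and 2 held 29133 and 15646 normalized counts of Ly6c2, and libraries 1 and 2 of WT K/BxN ST held 23510 and 12898. Ly6c2 lay between 1.87 and 17.8 in the other 10 libraries, so that the libraries fell into 2 separate clusters. The 4 libraries rich in Ly6c2 had summed globin levels of 667 to 4370, within the 468 to 40840 of the other 10. The library with the most globin, WT Control ST library 3, had 1.91 normalized counts of Ly6c2, the second lowest of the 14. Within the 10 libraries with little Ly6c2, Pearson's r between the log2 globin sum and log2 Ly6c2 was -0.20 and Spearman's rho was -0.16, and without WT Control ST library 3 they were 0.22 and 0.083.

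TASTPM K/BxN ST libraries 1 to 4 held 39499, 50146, 24.7 and 28.2 normalized counts of S100a8, and those of WT K/BxN ST held 53594, 143, 5.97 and 378. Control ST libraries held 86.2, 5.03 and 969 in WT and 7.31, 22.2 and 52.7 in TASTPM. WT Control ST library 3 thus held the fourth highest S100a8 level and the highest among libraries with little Ly6c2. Of 12 neutrophil markers, 4 had their highest level of the 10 libraries with little Ly6c2 in that library, namely S100a8, its partner S100a9 at 1525 normalized counts, Retnlg at 252 and Lcn2 at 53.5. A further 7, which are Ly6g, Mmp8, Mmp9, Ngp, Camp, Ltf and Cxcr2, had at most 3 reads there. Csf3r, the granulocyte colony-stimulating factor receptor gene, stood at 9181 there. It was high in every library, from 3684 in TASTPM K/BxN ST library 1 to 10517 in WT K/BxN ST library 4. The part of neutrophil RNA in that library was not tested. WT K/BxN ST library 1, with the most S100a8, had the third lowest globin sum. Within the same 10 libraries, r between the log2 globin sum and log2 S100a8 was 0.50 and rho was 0.27, and without WT Control ST library 3 they were -0.06 and 0.00. Leaving out the 4 Ly6c2-rich libraries, an alternative chosen after the values were seen, gave a summed globin difference of -2.56 in WT and 2.44 in TASTPM.

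**Figure D4:**
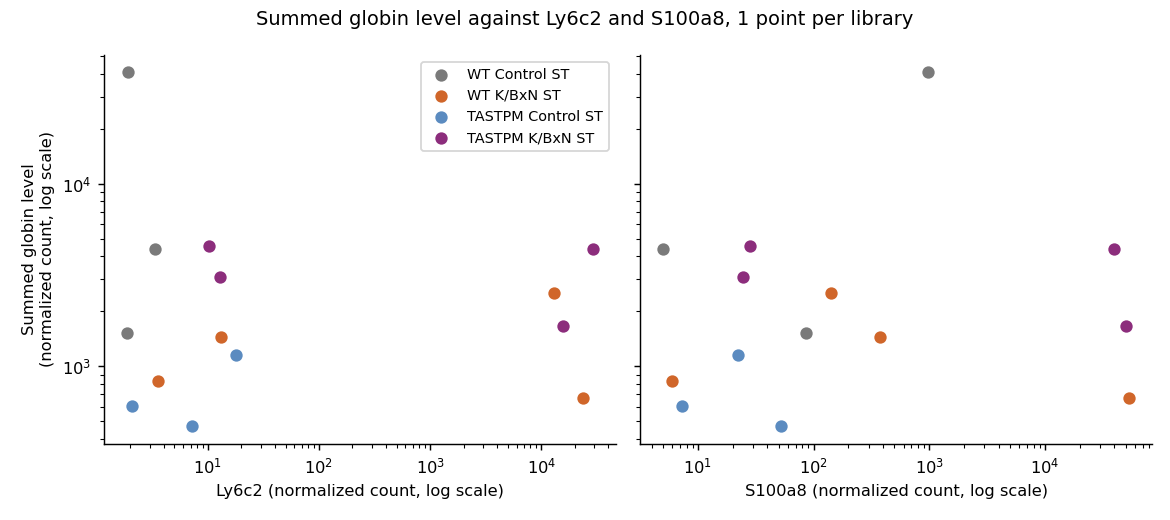
Summed globin level of each library (vertical log axis, normalized counts) against Ly6c2 (left) and S100a8 (right), both on log axes, with 1 point per library coloured by group. The 4 libraries with over 10000 counts of Ly6c2 span globin sums of 667 to 4370, and the library with 40840 globin counts lies at 1.91 counts of Ly6c2 and 969 of S100a8.

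Other genes of red cells did not follow the globin genes as a group. Of 37 further genes used by the erythroid lineage, 20 had a value and 16 were tested, and limma, edgeR and DESeq2 each called 0 of them in the 4 comparisons. Without WT Control ST library 3, DESeq2 called 1 of them, Cd24a, in WT. At an unadjusted limma p below 0.05 there were 0 of 16 in WT, 0 in TASTPM and 0 between genotypes under Control ST, where the shares over all tested genes were 7.13%, 4.22% and 5.57%. Between genotypes under K/BxN ST there were 3, namely Ube2l6, Car2 and Ermap, where the share over all genes was 1.91%. Of 18 genes largely restricted to that lineage, 3 had a value, and the other 15, which include the red cell anion exchanger gene Slc4a1, were not analysed here, nor were 10 globin genes outside the 4. Ermap, an erythroblast membrane protein gene, ranged from 14.6 to 299 normalized counts and Epor, the erythropoietin receptor gene, from 0 to 61.8. Tspan33, a tetraspanin gene, ranged from 419 to 1626. The median log2 fold change of the 14 tested genes shared with other lineages was 0.11 in WT and 0.23 in TASTPM, against 0.06 and 0.01 over all tested genes. The most abundant of them were Bnip3l, a mitophagy receptor gene, with a mean of 3166 normalized counts, Mkrn1 with 2611 and Tent5c with 2548.

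Among the 20 genes, Bpgm and Tent5c had their highest level in WT Control ST library 3, and they were named after their values were seen. Bpgm, which encodes the red cell enzyme that makes 2,3-bisphosphoglycerate, stood at 655 normalized counts there and at no more than 334 elsewhere. Tent5c stood at 4079 against 3652. Bpgm was not called in WT (log2 fold change 1.37 ± 2.0, limma adjusted p = 0.876) or in TASTPM (-1.27 ± 2.0, limma adjusted p = 0.969).

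Some genes of the erythroid and heme lists were high in the Ly6c2-rich libraries. Gypc, the glycophorin C gene, had 111 to 447 normalized counts in those 4 libraries and 0 in each of the other 10. Nfe2, an erythroid and megakaryocyte transcription factor gene, had 1151 to 2246 against 52.5 in WT Control ST library 3 and at most 3.27 in the other 9. Cd24a, a surface antigen gene of red cell precursors and granulocytes, had 296 to 1234 against 0 to 69.3. Haptoglobin (Hp), which binds free haemoglobin, had 9395 to 25011 against 0.838 to 48.0. The summed level of 8 monocyte markers ranged from 90.5 to 169076 normalized counts over TASTPM K/BxN ST libraries and from 43.0 to 152182 over WT K/BxN ST libraries. It was 21.8 to 174 in WT Control ST and 150 to 1037 in TASTPM Control ST. These genes were named after their values were seen, and the part of monocyte RNA in them was not tested. The gate described above selected cells without surface Ly6C and CCR2. RNA of Ccr2, the gene of the latter, was at 8537 to 27035 normalized counts in those 4 libraries. It was at 3.13 to 86.0 in the other 10.

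**Figure D5:**
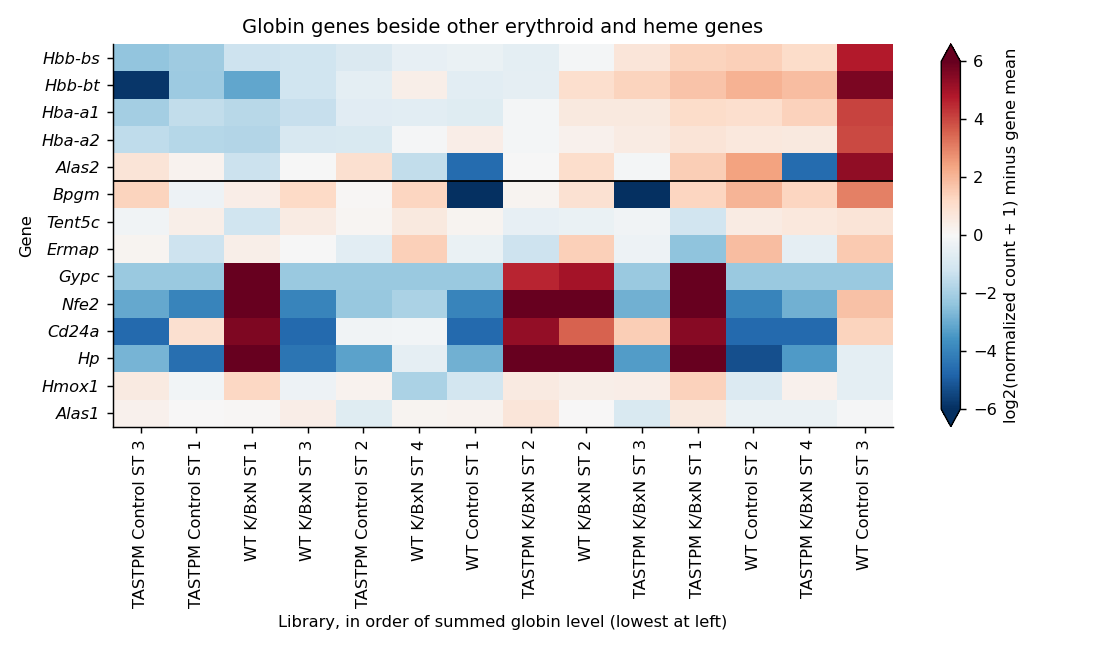
Log2(normalized count + 1) minus each gene's mean over the 14 libraries, for the 5 genes (above the line) and 9 erythroid and heme genes chosen after their values were seen, with libraries ordered by summed globin level and colours limited to 6 log2 units either way. The globin genes deepen in colour towards the right, where Bpgm is also highest, whereas Gypc, Nfe2, Cd24a and Hp are high in the 4 Ly6c2-rich libraries wherever these fall in the order.

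Heme synthesis genes other than Alas2 were measured in every group and were not called. All 11 were tested. Their log2 fold change was above 0 for 8 genes in WT and for 7 in TASTPM, with medians of 0.22 and 0.11. Tmem14c, a mitochondrial porphyrin transport gene, had a mean of 2106 normalized counts, Alas1 of 1944, and Fech, the ferrochelatase gene of the last step of the pathway, of 1204. Alas1 ranged from 982 to 3057 and stood at 1740 in WT Control ST library 3, the library with the most Alas2. Of 19 genes for heme and iron handling, 17 had a value and 16 were tested, with 0 called and medians of 0.02 in WT and -0.0025 in TASTPM. The ferritin genes Fth1 and Ftl1 averaged 45498 and 17074 normalized counts and the iron transporter gene Slc11a1 9855. Hmox1, the heme oxygenase gene induced by heme and named after its values were seen, stood at 1007 in WT Control ST library 3 and ranged from 401 to 3897 over all libraries.

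The 5 genes most like the globin genes were sought among 12640 tested genes, by Pearson's r over 14 libraries with the mean of the standardized log2 levels of the 4 globin genes. They were Prkacb, a protein kinase A catalytic subunit gene, at 0.77, Nab2 at 0.75, 4933439K11Rik at 0.75, Tnni2 at 0.75 and the splicing helicase gene Snrnp200 at 0.73. Each had its highest level in WT Control ST library 3, with Prkacb at 2074 normalized counts and Nab2 at 517. Without that library the coefficients lay between 0.51 and 0.69. Bpgm ranked 3012 of the 12640 genes on this measure, at 0.17.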

How the data were processed

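Sorted DH microglia from 14 mice were profiled by bulk RNA-seq, with SMART-Seq amplification. The authors aligned reads with HISAT2 2.1 to GRCm39, counted them per gene with featureCounts 1.5.2 and an Ensembl annotation, and deposited DESeq2-normalized counts, a signal in which reads are divided by 1 factor for each library. Every deposited value was a whole multiple of 1 read (100% of values, within 0.01 reads), so whole reads were recovered. Of 14336 entries, 7 repeated an identifier. limma 3.58.1 (R 4.3.3) was fitted to log2(normalized count + 1) of 12645 genes, with a variance trend, 1 fit for all groups and Benjamini-Hochberg adjustment. edgeR 4.0.16 quasi-likelihood, planned for counts, became an alternative beside DESeq2 1.42.0, both on recovered reads. Scripts were tested on simulated data. Other alternatives were the filter, the pseudocount, library scaling and leaving out each library. Members and gene lists were chosen with earlier results of these data known. Named genes were the 5 members, Ly6c2 and S100a8, the genes called and the 3 most abundant of the erythroid and heme lists, and the 5 most similar genes. Others, including the neutrophil markers besides S100a8, were named after their values were seen. Positions and transcripts come from GENCODE M39, a later annotation than the authors'. Some listed genes are not reported here by name.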

Additional observations from a re-analysis of the deposited data

Results flagged for a closer look

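The serum difference of the globin genes pointed in opposite directions in the genotypes. All 4 TASTPM K/BxN ST libraries lay above the mean log2 level of TASTPM Control ST, and all 4 WT K/BxN ST libraries lay below that of WT Control ST, for each of the 4 globin genes and for their sum. The TASTPM difference minus the WT difference, on the log2 scale, was 5.13 for Hbb-bs, 7.06 for Hbb-bt, 4.36 for Hba-a1, 4.10 for Hba-a2 and 4.64 for the summed globin level. The difference for the sum was not tested, and for the single genes the interaction was fitted over all genes with the calls given above. Without WT Control ST library 3 the values were 3.71 for Hbb-bs, 5.42 for Hbb-bt, 3.06 for Hba-a1, 2.96 for Hba-a2 and 3.32 for the sum. All 4 WT K/BxN ST libraries were then still below the WT Control ST mean for Hbb-bs, Hba-a2 and the sum, and 3 of 4 for Hbb-bt and Hba-a1. Alas2 did not show this pattern, and its difference was 0.02 with all libraries and -2.12 without WT Control ST library 3.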

How the results depend on the processing

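The summed globin difference kept its sign under every alternative run in all 4 comparisons. Under scaling by library totals, TMM scaling and a pseudocount of 10 it was -2.43 to -2.38 in WT and 2.19 to 2.22 in TASTPM. Leaving out 1 library gave -3.49 to -1.11 in WT, 1.92 to 2.58 in TASTPM, -4.28 to -1.90 for TASTPM against WT under Control ST and 1.13 to 1.77 under K/BxN ST. The extremes in WT and under Control ST came without WT Control ST libraries 1 and 3. The Alas2 log2 fold change in WT ran from -4.31 without WT Control ST library 1 to 0.65 without library 3, a change of sign. limma called 1 gene in WT, against 0 with edgeR, 127 with DESeq2 and 0 to 17 without 1 library. In TASTPM it called 0, against 16 with DESeq2 and 0 to 1 without 1 library. Between genotypes under Control ST the counts were 0, 41 and 0 to 11, and for the interaction 0, 12 and 0 to 3. DESeq2 called 2 of the 5 genes in WT, 3 between genotypes under Control ST and 2 in the interaction, where limma and edgeR called 0. DESeq2 without WT Control ST library 3, added after the data were seen, called 290 genes in WT, 19 in TASTPM, 160 between genotypes under Control ST and 59 for the interaction, of them 0, 1, 1 and 2 of the 5 genes. It called 1 other erythroid gene in WT, and all other alternatives called 0 of these. The cause of these differences was not tested. No paired analysis was possible because the groups share no replicate numbers in the labels. With 3 or 4 libraries a group, and 0 to 154 reads of Alas2 in 13 of the 14 libraries, small differences were not detectable at this depth.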
